A study of Mus musculus with 6 samples.

Results

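The genes described here are the protein-coding genes of the count table whose symbols begin with *Snrp*, *Srsf* or *Hnrnp*, which name the proteins of small nuclear ribonucleoproteins (snRNPs), the SR proteins and the heterogeneous nuclear ribonucleoproteins (hnRNPs). They number 43 of the 20409 features counted, with 12 *Snrp*, 11 *Srsf* and 20 *Hnrnp* genes, and the symbol prefix alone defines them. The counts come from villus epithelium of the duodenum, with 1 library of polyadenylated RNA from each of 3 double mutant and 3 wild-type mice. The double mutant mice carried Villin-CreERT2, an inducible Cre active across the intestinal epithelium, with *Smad4* fl/fl and *Ctnnb* exon3 fl/wt alleles, so that Cre removes Smad4 and leaves a stabilised β-catenin. They received tamoxifen at 0.05 g/kg on 4 consecutive days, and their villi were taken 7 days after induction. The wild-type controls were uninjected littermates, and the effects of tamoxifen and of the mutations cannot be told apart in this design. Each group held 2 females and 1 male, matched for age, on a C57BL6-enriched background.

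Splicing removes introns from pre-mRNA in the spliceosome. Its U1, U2, U4 and U5 snRNPs each hold a ring of Sm proteins closed around a small nuclear RNA, together with proteins particular to each particle. SR proteins bind exons and help the snRNPs to recognise them, and hnRNP proteins coat nascent transcripts and often work against SR proteins in the choice of exons. In the intestine, dividing crypt cells give rise to the non-dividing cells of the villus.

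Library totals ran from 19678507 to 26337318 counts, so that 3 counts, taken as the floor of detection, corresponded to a normalised count of 0.125 to 0.163 CPM (counts scaled to a common library size with TMM factors). This floor covers counting error only. *Smad4* was lower in the double mutant villi (-2.22 on the log2 scale, adjusted p = 0.000145, edgeR's quasi-likelihood test), whereas *Ctnnb1* did not pass the test (-0.15, adjusted p = 0.359, same test). Wild-type replicate 1 stood apart from the other wild-type mice in the sum of 6 goblet cell markers. It had 121 CPM against 10826 and 11476 CPM in the others, and the double mutants had 4386 to 4850 CPM. Of the 6, *Clca1* was higher in the double mutants and 5 did not pass. *Clca1* did not stand apart in wild-type replicate 1, with 2.62 CPM against 5.82 and 3.03 CPM in the others. Summed over 9 enterocyte markers, the levels ran from 38086 to 42606 CPM in wild-type and from 23160 to 26154 CPM in double mutant villi, with 5 of the 9 lower, *Fabp1* higher and 3 not passing. The sum over 7 proliferation markers was 60.9 to 85.5 CPM in wild-type and 183 to 225 CPM in double mutant villi, and all 7 rose. For 6 T lymphocyte markers the sums overlapped, at 77.0 to 146 and 62.5 to 104 CPM, with 2 of the 6 lower. Of 6 stromal markers, 5 were in the table and 2 were tested, neither passed, and their sum was at most 4.82 CPM in any mouse. No marker of these lists was at 0 in every library. The part of these differences in the results below was not tested. In bulk RNA, more cells of a kind and more RNA per cell cannot be told apart.

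The promoters of 4 members are shown because they cover each class by its strongest or second strongest rise, with and without matches to an E-box or ETS core. They are RefSeq windows of GRCm38.p6, running from 250 bases before to 50 bases after the annotated start, and such windows were matched for 39 of the 43 members. Capitals mark matches on either strand to CACGTG, the E-box core bound by MYC and other helix-loop-helix proteins, or to a core bound by ETS factors, CCGGAAG, which is printed as its reverse complement where it lies on the other strand.
*Snrpg* (chr6:86371290-86371589, plus strand; ETS match at -145): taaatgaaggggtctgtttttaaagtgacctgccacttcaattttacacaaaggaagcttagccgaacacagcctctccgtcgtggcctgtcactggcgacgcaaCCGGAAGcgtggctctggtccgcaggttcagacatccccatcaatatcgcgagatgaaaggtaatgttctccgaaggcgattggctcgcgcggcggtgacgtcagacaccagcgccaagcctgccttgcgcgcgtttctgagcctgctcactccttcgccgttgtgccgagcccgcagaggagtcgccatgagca
*Snrpd2* (chr7:19149588-19149887, plus strand; no match): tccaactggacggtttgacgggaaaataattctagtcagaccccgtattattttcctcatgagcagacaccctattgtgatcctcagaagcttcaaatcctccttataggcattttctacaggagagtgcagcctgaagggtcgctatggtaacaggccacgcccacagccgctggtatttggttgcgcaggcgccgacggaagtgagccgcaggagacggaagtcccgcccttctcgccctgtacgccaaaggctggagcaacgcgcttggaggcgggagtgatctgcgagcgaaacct
*Srsf7* (chr17:80207256-80207555, minus strand; ETS match at -218): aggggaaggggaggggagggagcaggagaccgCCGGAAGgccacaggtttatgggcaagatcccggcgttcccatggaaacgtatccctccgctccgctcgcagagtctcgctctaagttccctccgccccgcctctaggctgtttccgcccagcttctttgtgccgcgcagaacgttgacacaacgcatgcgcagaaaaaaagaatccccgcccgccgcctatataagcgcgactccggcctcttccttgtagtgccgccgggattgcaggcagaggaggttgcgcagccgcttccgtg
*Hnrnpd* (chr5:99978889-99979188, minus strand; E-box match at -32 and ETS match at -178): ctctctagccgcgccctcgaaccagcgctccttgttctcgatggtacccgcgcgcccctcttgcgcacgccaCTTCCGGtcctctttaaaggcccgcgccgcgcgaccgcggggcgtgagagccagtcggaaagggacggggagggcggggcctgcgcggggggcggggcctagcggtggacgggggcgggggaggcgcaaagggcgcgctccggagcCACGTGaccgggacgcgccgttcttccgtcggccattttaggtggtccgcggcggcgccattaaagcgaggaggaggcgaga

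Among the 39 members with a window, 10 (25.6%) held the ETS letters and 6 (15.4%) the E-box, against 9.93% and 8.09% of all 27025 genes with windows of this length. The ETS letters were present in 4 of 10 *Snrp*, 4 of 11 *Srsf* and 2 of 18 *Hnrnp* genes. The E-box was found in 5 of the 18 *Hnrnp* genes, in *Snrpa* and in none of the 11 *Srsf* genes. The letters CTTTGAT, a core bound by the TCF/LEF partners of β-catenin, occurred in *Snrpa* alone (2.56% of the members, against 4.29% of all genes). In *Snrpe*, matches on both strands overlapped at 4 and 7 bases after the start. These matches are descriptions of letters, not of bound sites. Windows of *Snrpb*, *Snrpd1*, *Hnrnpll* and *Hnrnpul2* were not analysed here.

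Most members stood higher in the double mutant villi. Of the 42 members that passed the filter on low counts, 20 rose, 2 fell and 20 did not pass an adjusted p of 0.05 in edgeR's quasi-likelihood test. Over all 13346 genes tested, 19.7% rose and 17% fell. The log2 fold change was positive for 35 of the 42, and its median was 0.39, against 0.02 over all genes tested. Every double mutant mouse lay above every wild-type mouse for 27 of the 42 members, compared with 28.1% of all genes, and below for 5, compared with 24.2%. By class, the median log2 fold change was 1.06 for *Snrp*, 0.54 for *Srsf* and 0.29 for *Hnrnp* genes, while the summed levels were 1.77, 1.13 and 1.16 times higher. The difference between the classes was not tested. All 5 members that passed with a rise of at least 1 on the log2 scale were *Snrp* genes. Of all genes tested, 10.9% passed with a rise that large and 6.23% with a fall that large. Scaling by library size alone, without the TMM factors, moved the median of all genes by 0.19 and called 32 members higher and none lower, with 3732 higher and 1425 lower over all genes in place of 2632 and 2273.

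**Figure D1:**
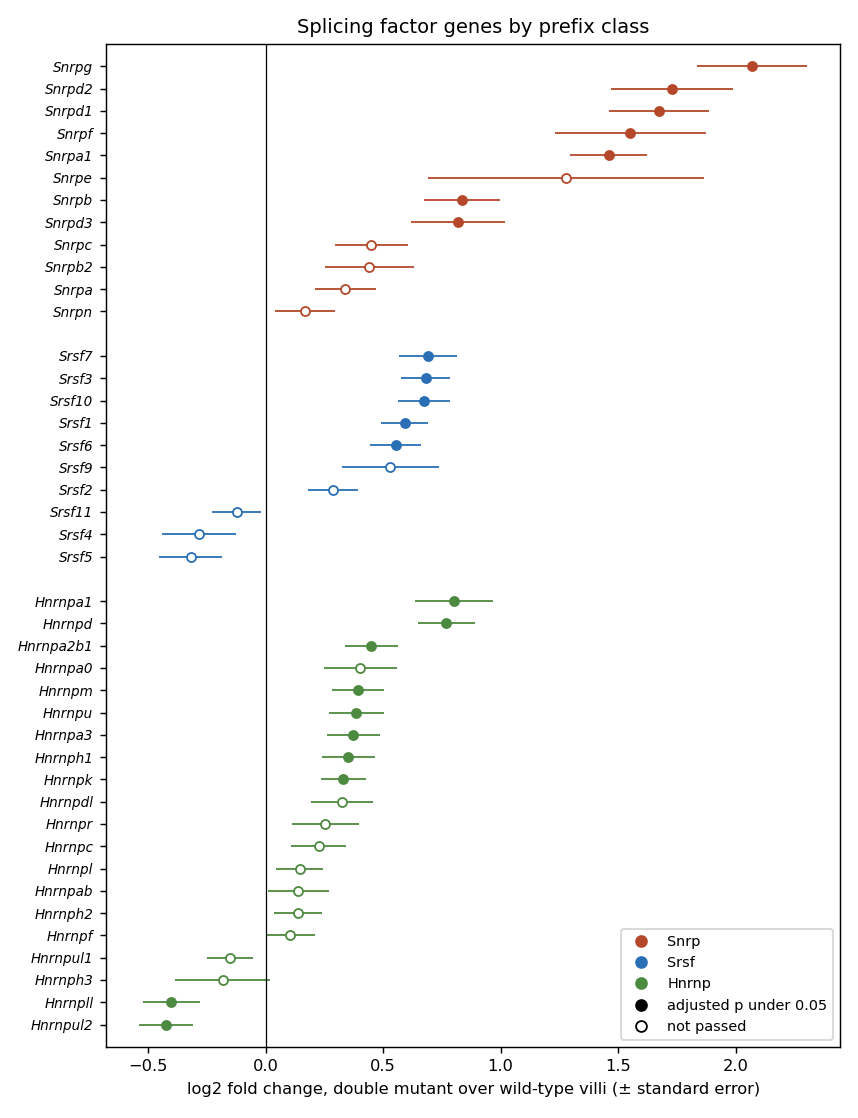
Log2 fold change of double mutant over wild-type villi for the 42 tested members, ordered within each class, with bars for the standard error and filled points for an adjusted p under 0.05 (edgeR, 3 mice against 3). The *Snrp* genes reach 2.07, the *Srsf* genes 0.69 and the *Hnrnp* genes 0.80, and the 2 filled points left of 0 are *Hnrnpll* and *Hnrnpul2*.

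The *Snrp* class rose in 7 of its 12 genes in edgeR and in DESeq2, and none fell in either tool or at an unadjusted p under 0.05. Its summed level was 199, 168 and 207 CPM in the wild-type mice and 295, 395 and 325 CPM in the double mutants, a mean 1.77 times higher. All 7 genes of the Sm ring, *Snrpb*, *Snrpd1*, *Snrpd2*, *Snrpd3*, *Snrpe*, *Snrpf* and *Snrpg*, were higher in every double mutant mouse than in any wild-type mouse. Of these, 6 passed the test, and the median log2 fold change of the ring was 1.55.

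*Snrpg*, which encodes the ring protein SmG, lies on chromosome 6 from 86321534 to 86328896 on the plus strand of mm9. Its level was 2.92, 4.08 and 4.85 CPM in wild-type and 15.1, 19.9 and 14.7 CPM in double mutant villi. The groups lay far apart, by 2.07 on the log2 scale (standard error, SE, 0.23, edgeR adjusted p = 0.00045), which exceeded 97.1% of all genes tested. Expression of *Snrpd2* (SmD2; chromosome 7, 19735071 to 19738084) was 10.3, 7.62 and 12.0 CPM in wild-type and 24.6, 45.4 and 29.4 CPM in double mutant villi. Double mutant replicate 2 was the highest, and the log2 fold change was 1.73 (SE 0.26, edgeR adjusted p = 0.00169). For *Snrpd1*, whose product SmD1 pairs with SmD2 in the ring, the wild-type mice had 5.58, 4.73 and 6.57 CPM and the double mutants 15.2, 22.5 and 16.3 CPM. The difference was 1.68 on the log2 scale (SE 0.21, edgeR adjusted p = 0.000722).

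*Snrpf* (SmF; chromosome 10, 93045774 to 93052451) was the least abundant ring gene per kb of exon in 5 of the 6 mice. Its 2.79, 2.72 and 2.58 CPM in wild-type villi were nearly equal, while the double mutants spread over 4.55, 8.30 and 10.9 CPM. The log2 fold change was 1.55 (SE 0.32, edgeR adjusted p = 0.00642). Exons of *Ccdc38* and *4933408J17Rik* on the opposite strand overlap its exons. The 2 overlaps sum to 85.4% of its exon length, with any base under both genes counted for each. With no strand setting given, its reads there cannot be told apart from theirs. *Snrpb*, the gene of SmB and SmB′, went from 28.7, 33.7 and 34.3 CPM to 45.3, 66.3 and 61.0 CPM, with a log2 fold change of 0.84 (SE 0.16, edgeR adjusted p = 0.00466). *Snrpd3*, which encodes the SmD3 partner of SmB, had 20.9, 16.3 and 18.3 CPM in wild-type and 23.6, 39.7 and 34.6 CPM in double mutant villi. Its rise of 0.82 (SE 0.20, edgeR adjusted p = 0.0131) no longer passed without wild-type replicate 2 (adjusted p = 0.0510) or without double mutant replicate 2 (adjusted p = 0.0532).

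*Snrpe* (SmE) was the single ring gene that did not pass, and it is described here because of the values seen. The wild-type mice had 15.3, 2.67 and 14.4 CPM, from 367, 49 and 284 counts, and the double mutants 24.04, 29.9 and 24.8 CPM. Wild-type replicate 2 lay far below the other wild-type mice. The log2 fold change was 1.28 with a SE of 0.59 (edgeR adjusted p = 0.145). Without that mouse it was smaller, 0.82, and passed (SE 0.17, edgeR adjusted p = 0.0115). The summed level of the other 6 ring genes rose from 73.0 ± 4.996 to 166 ± 36.8 CPM (SD, n = 3 mice each), so that the ring's sum was 2.27 times higher without *Snrpe* and 2.29 times higher with it.

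Levels within the ring lay closer together in the double mutant villi. On the scale of CPM per kb of exon, the highest ring gene stood above the lowest by 10.7, 13.9 and 10.1 times in the wild-type mice and by 7.59, 7.67 and 4.51 times in the double mutants. *Snrpd3* or *Snrpd2* was the highest in each mouse. Without *Snrpe*, which was the lowest in wild-type replicate 2, that mouse had a ratio of 8.52, and the groups still did not overlap. The same held without *Snrpf*, the lowest gene in the other 5 mice and the one with antisense overlap. The ratios were then 9.15, 13.9 and 4.83 in wild-type and 2.29, 3.40 and 3.16 in double mutant villi. Without both *Snrpe* and *Snrpf* they were 9.15, 5.10 and 4.83 in wild-type and 2.21, 2.87 and 3.01 in double mutant villi.

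Outside the ring, *Snrpa1*, which encodes a protein of the U2 snRNP, rose from 8.83, 7.24 and 8.34 CPM to 19.8, 26.1 and 21.4 CPM. Its log2 fold change was 1.46 (SE 0.17, edgeR adjusted p = 0.000453). The genes of the other specific proteins did not pass. *Snrpc*, a gene of the U1 snRNP, stood at 0.45 on the log2 scale (edgeR adjusted p = 0.0514). The values were 0.44 for *Snrpb2*, whose protein binds U2 RNA together with that of *Snrpa1* (adjusted p = 0.0998), and 0.34 for *Snrpa* of the U1 snRNP (adjusted p = 0.0711). In all 3 the double mutant mice lay above the wild-type mice without overlap. *Snrpn*, the imprinted gene of SmN, a close relative of SmB known from neurons, had 34.4, 32.0 and 36.8 CPM in wild-type and 42.0, 40.3 and 33.7 CPM in double mutant villi. Its groups overlapped (log2 fold change 0.17, edgeR adjusted p = 0.333).

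**Figure D2:**
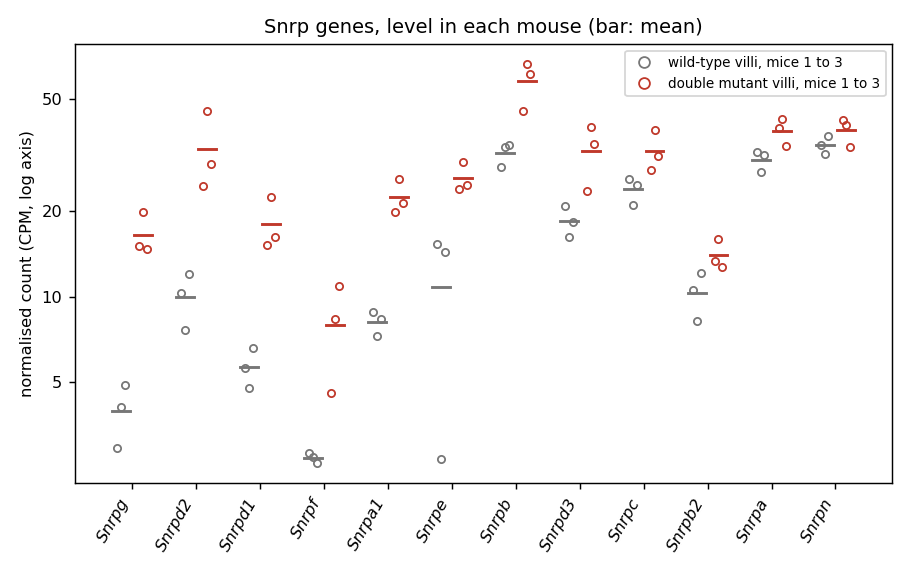
Normalised count of each *Snrp* gene in each mouse on a log axis (CPM, TMM-scaled), with points for mice and bars for the mean of the 3 mice of a group. The groups are separate for every gene except *Snrpn*, and the low grey point of *Snrpe* is wild-type replicate 2 at 2.67 CPM.

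The *Srsf* class was mixed. Of 10 genes tested, 5 rose in edgeR and in DESeq2 and none fell, although 1 (*Srsf5*) was lower at an unadjusted p under 0.05 in edgeR. The 5 that did not pass ran from -0.32 to 0.53 on the log2 scale. *Srsf7* (chromosome 17, 80599429 to 80606629, minus strand), an SR protein with a zinc knuckle that also takes part in mRNA export, went from 26.9, 24.2 and 29.2 CPM to 41.1, 46.6 and 41.9 CPM. The mice of each group lay close together, and the log2 fold change was 0.69 (SE 0.12, edgeR adjusted p = 0.0032). *Srsf3* (chromosome 17, 29169618 to 29180311), the smallest SR protein, had 70.9, 63.5 and 70.8 CPM in wild-type and 105, 113 and 110 CPM in double mutant villi. The rise of 0.68 had an adjusted p of 0.00163 (SE 0.10, edgeR).

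*Srsf10*, which acts as a splicing repressor when dephosphorylated, rose from 32.3, 30.4 and 29.5 CPM to 51.1, 46.0 and 49.9 CPM, by 0.67 on the log2 scale (SE 0.11, edgeR adjusted p = 0.0022). *Srsf1*, the founding SR protein and a known oncogene product, was at 72.2, 78.3 and 74.3 CPM in wild-type and at 109, 115 and 114 CPM in double mutant villi. Its log2 fold change was 0.59 (SE 0.10, edgeR adjusted p = 0.00241), and for *Srsf6* it was 0.55 (edgeR adjusted p = 0.00488). These 5 genes passed the test in all 14 alternative fits of normalisation, filter, covariate and left-out mouse.

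The *Srsf* genes that did not pass included *Srsf5*, the one with the highest level per kb of exon. It had a wild-type mean of 329 ± 30.5 CPM and a double mutant mean of 263 ± 35.4 CPM (SD, n = 3 each), with every double mutant mouse below every wild-type mouse but a log2 fold change of -0.32 that missed the threshold (edgeR adjusted p = 0.0924). *Srsf4* lay the same way, at -0.28 (adjusted p = 0.193), and *Srsf11* at -0.12 (edgeR adjusted p = 0.381). Exons of *Gm12992* on the opposite strand overlap 43.3% of the exon length of *Srsf4*. *Srsf9* was at 0.53 with an adjusted p of 0.0751, and *Srsf2* at 0.29 with 0.0677 (edgeR). *Srsf12* was not tested, with 3, 1 and 0 counts in the wild-type and 2, 3 and 0 counts in the double mutant libraries, so no fold is given. The summed *Srsf* level overlapped between the groups, at 961, 872 and 908 CPM in wild-type and 953, 1079 and 1055 CPM in double mutant villi.

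Among the 20 *Hnrnp* genes, 8 rose, 2 fell and 10 did not pass in edgeR, while in DESeq2 6 rose and 2 fell, without the calls of *Hnrnph1* and *Hnrnpa3*. Their summed level was 2407, 2454 and 2310 CPM in wild-type and 2572, 2898 and 2849 CPM in double mutant villi, 1.16 times higher in the mean. *Hnrnpa1* (chromosome 15, 103070945 to 103074445), an exon-skipping factor that opposes SRSF1, had 45.4, 51.5 and 52.0 CPM in wild-type and 65.5, 94.99 and 98.9 CPM in double mutant villi. The log2 fold change was 0.80 (SE 0.17, edgeR adjusted p = 0.00624). *Hnrnpd* (chromosome 5, 100387445 to 100407957), which encodes AUF1, a regulator of AU-rich mRNA stability, rose from 60.3, 52.0 and 60.2 CPM to 87.1, 105 and 102 CPM. Its log2 fold change was 0.77 (SE 0.12, edgeR adjusted p = 0.00191).

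*Hnrnpa2b1*, the *Hnrnp* gene with the highest wild-type level per kb of exon and a relative of *Hnrnpa1*, had 327, 333 and 317 CPM in wild-type and 393, 469 and 473 CPM in double mutant villi. The rise was 0.45 on the log2 scale (SE 0.11, edgeR adjusted p = 0.0147). *Hnrnpm*, known for exon choice in epithelial and mesenchymal cells, went from 98.8, 92.4 and 86.7 CPM to 111, 129 and 125 CPM (log2 fold change 0.39, edgeR adjusted p = 0.0232). Exons of *March2* on the same strand overlap 24.8% of its exon length. The remaining rises were *Hnrnpu* at 0.39, *Hnrnpa3* at 0.37, *Hnrnph1* at 0.35 and *Hnrnpk* at 0.33.

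Both genes that fell belong to this class. *Hnrnpul2*, a relative of the nuclear scaffold protein gene *Hnrnpu*, dropped from 312, 339 and 287 CPM to 214, 239 and 247 CPM (log2 fold change -0.42, SE 0.11, edgeR adjusted p = 0.0193). *Hnrnpll*, best known for the exon choice of *Ptprc* (CD45) in lymphocytes, went from 59.9, 57.2 and 48.2 CPM to 44.1, 40.1 and 40.9 CPM (log2 fold change -0.40, SE 0.12, edgeR adjusted p = 0.0315). *Ptprc* itself, one of the T lymphocyte markers, changed by -1.29 on the log2 scale (edgeR adjusted p = 0.00545), and its part in the value of *Hnrnpll* was not tested.

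Of the 10 calls of this class, those of *Hnrnpa1* and *Hnrnpd* alone passed in all 14 alternative fits, against 6 of 7 in the *Snrp* and 5 of 5 in the *Srsf* class. The number of *Hnrnp* genes called higher was 4 without wild-type replicate 2, 2 without wild-type replicate 3, 3 without double mutant replicate 2 and 2 without double mutant replicate 3. Over all genes, the same 4 fits called 14.9%, 15.6%, 13.5% and 14.5% higher in place of 19.7%, and 2 or 3 of 20 (10% or 15%) is near or below that background. The fall of *Hnrnpul2* no longer passed in 4 of the 14 fits and that of *Hnrnpll* in 6. Both calls were lost without wild-type replicate 2 (edgeR adjusted p = 0.0718 and 0.0895) and with the replicate number as a block. Both were also lost under library size alone, where the log2 fold changes were -0.23 and -0.21. That of *Hnrnpul2* was also lost without double mutant replicate 1, and that of *Hnrnpll* without wild-type replicate 1, double mutant replicate 2 or double mutant replicate 3. The 10 genes that did not pass ran from -0.18 for *Hnrnph3* to 0.40 for *Hnrnpa0*. Exons of *Rufy2* on the opposite strand overlap 75.5% of the exon length of *Hnrnph3*.

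**Figure D3:**
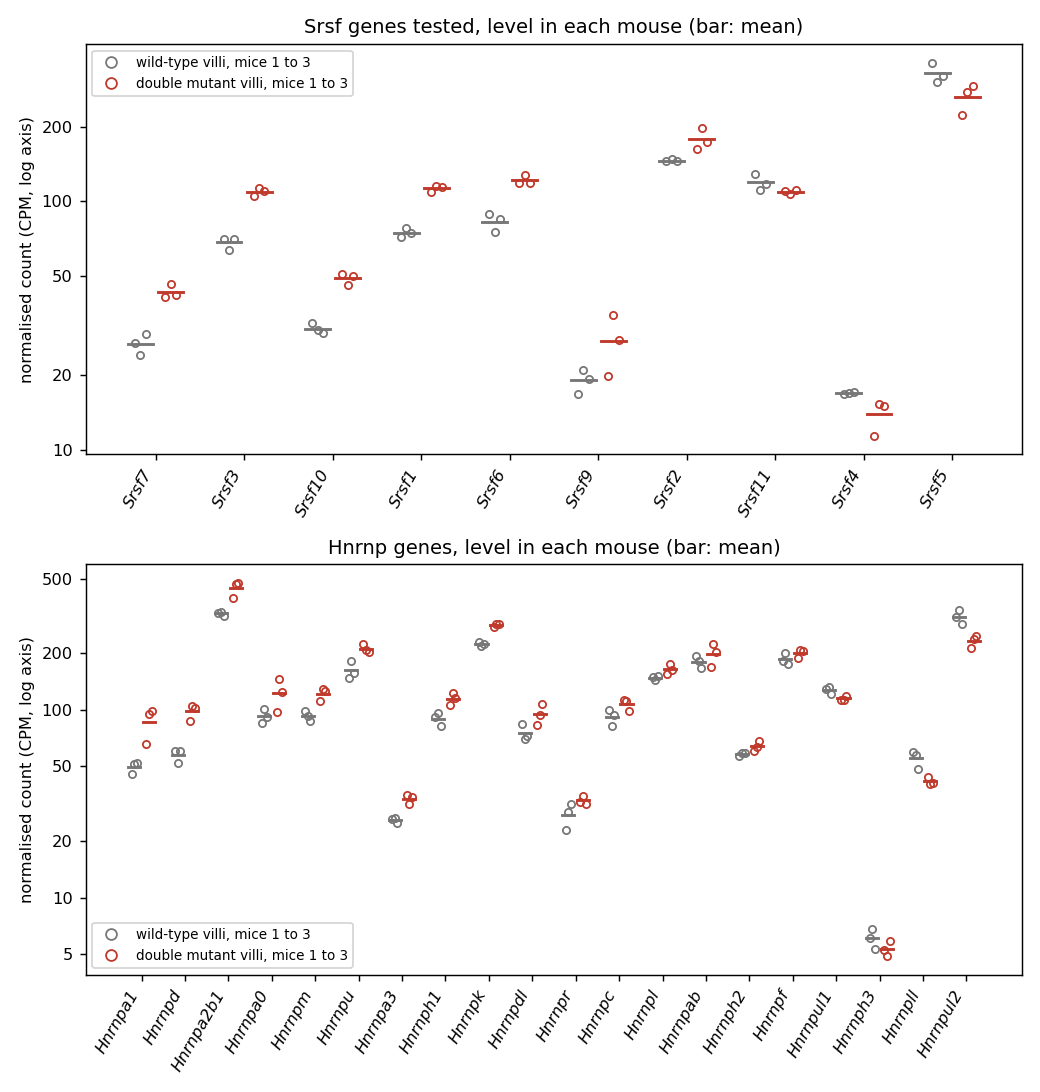
Normalised count of the 10 tested *Srsf* genes (top) and the 20 *Hnrnp* genes (bottom) in each mouse on log axes (CPM, TMM-scaled), ordered by log2 fold change, with bars for group means. *Srsf5*, at the right of the upper panel, and *Hnrnpll* and *Hnrnpul2*, at the right of the lower one, have their double mutant points below their wild-type points.

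Within 5 pairs of related genes, the counts of one were compared with those of the other in the same mouse, which needs no scaling between libraries. *Snrpn* had 120, 94.8 and 107% of the *Snrpb* counts in wild-type and 92.5, 60.7 and 55.2% in double mutant villi. The groups did not overlap, and the log2 ratio differed by -0.66. The ratio of *Hnrnpa1* to *Hnrnpa2b1* rose from 13.9, 15.5 and 16.4% to 16.7, 20.2 and 20.9%, a difference of 0.33 on the log2 scale. *Hnrnpll* had 40.2, 39.6 and 31.7% of the counts of *Hnrnpl*, its paralog, in wild-type and 28.6, 22.9 and 25.1% in double mutant villi, a difference of -0.54. *Hnrnpl* itself had a log2 fold change of 0.14 (edgeR adjusted p = 0.293). *Hnrnph2* stood at 61.8, 61.5 and 71.6% of *Hnrnph1* in wild-type and at 57.1, 51.6 and 58.8% in double mutant villi, a difference of -0.22, and its own log2 fold change was 0.14 (edgeR adjusted p = 0.330). Each of these 4 ratios gave p = 0.1 in an exact two-sided permutation test, the smallest that 3 mice against 3 allow, and 0.125 after adjustment over the 5 pairs. The ratio of *Srsf7* to *Srsf3* ranged from 37.9 to 41.3% in wild-type and from 37.9 to 41.1% in double mutant villi, with overlapping groups (exact permutation p = 0.9).

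**Figure D4:**
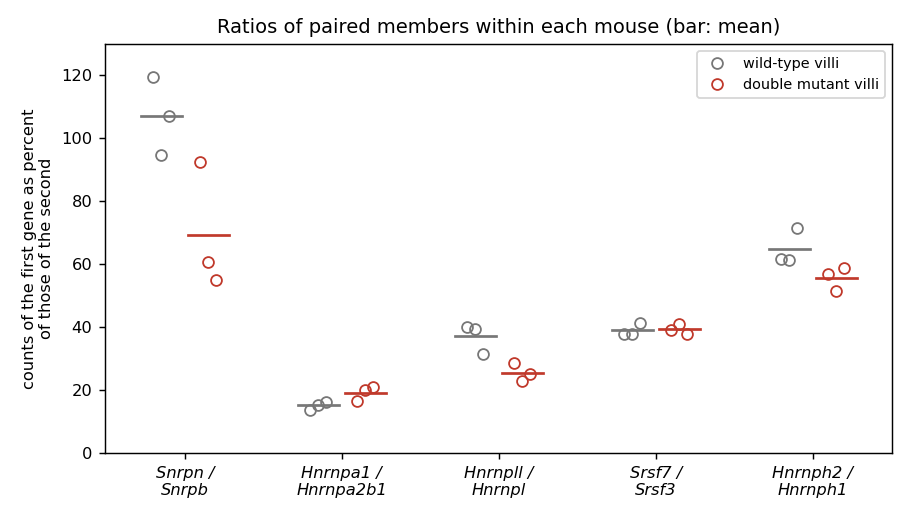
Counts of the first gene of each pair as a percentage of the counts of the second in the same mouse, with 3 mice per group and bars for the mean. The groups are separate in 4 pairs, with the gap between means widest for *Snrpn* over *Snrpb*, and overlap for *Srsf7* over *Srsf3*.

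The other genes of the splicing machinery were grouped into 9 lists, of which 132 genes were tested. Of these, 40 (30.3%) rose and 6 (4.55%) fell, against 19.7% and 17% of all genes. Under library size alone 71 rose and 2 fell, against 28% and 10.7% of all genes. These lists were chosen with earlier results of the same data known, so their order is a description. Factors that assemble snRNPs had a median log2 fold change of 1.10, and 6 of the 14 tested rose. *Prmt5*, the methyltransferase that prepares Sm proteins for assembly, went from 3.00, 3.21 and 5.05 CPM to 16.7, 17.6 and 12.7 CPM (log2 fold change 2.06, edgeR adjusted p = 0.000605). The other 5 were its partners *Wdr77* (1.34) and *Clns1a* (0.53), *Coil* (1.42), which encodes the Cajal body protein coilin, and *Smn1* (1.26) and *Ddx20* (1.20) of the SMN complex, which loads the ring onto RNA. LSm genes, which encode the related rings of U6 RNA and of mRNA decay and, as *Lsm10* and *Lsm11*, part of the U7 ring of histone mRNA processing, had a median of 0.82, and 5 of the 8 tested rose. *Lsm7* had the largest rise of that list, from 1.21, 1.96 and 1.72 CPM to 5.77, 9.09 and 5.93 CPM (log2 fold change 2.09, edgeR adjusted p = 0.00128).

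In the other 7 lists the medians were lower. Among SF3 and U2AF genes, which serve the recognition of the branch site and the 3′ splice site, 6 of 15 rose (median 0.33), led by *Sf3b3* at 0.94 (edgeR adjusted p = 0.000949). In the tri-snRNP and PRP list, 8 of 27 rose (median 0.25), led by *Nhp2l1*, a U4 RNA-binding protein gene. It went from 9.50, 9.85 and 9.96 CPM to 29.2, 32.4 and 25.3 CPM (log2 fold change 1.57, edgeR adjusted p = 0.00019). The shares that rose in the next 4 lists, at 20% or less, were near or below the 19.7% of all genes. Spliceosome helicases had 2 of 10 higher and 1 lower (median 0.04), with *Ddx39b* at 0.62 and *Dhx38* at -0.39. Genes of the *Snrnp* prefix, proteins specific to single snRNPs, had 1 of 7 higher, *Snrnp40* at 0.83, and 1 lower, *Snrnp25* of the minor spliceosome at -0.66 (median 0.14). The exon junction complex had 1 of 5 higher, *Eif4a3* at 0.44, and 1 lower, *Casc3* at -0.42 (median 0.39). SR kinases and coactivators had 2 of 16 higher and 1 lower (median 0.06), with *Tra2b* at 0.51 and the SR protein kinase *Clk3* at -0.56. In the list of other splicing regulators, 9 of 30 rose and 2 fell (median 0.22), from *Sfpq* at 0.76 to *Rbm47* at -0.78. *Rbm47* went from 365, 540 and 421 CPM to 251, 247 and 273 CPM.

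**Figure D5:**
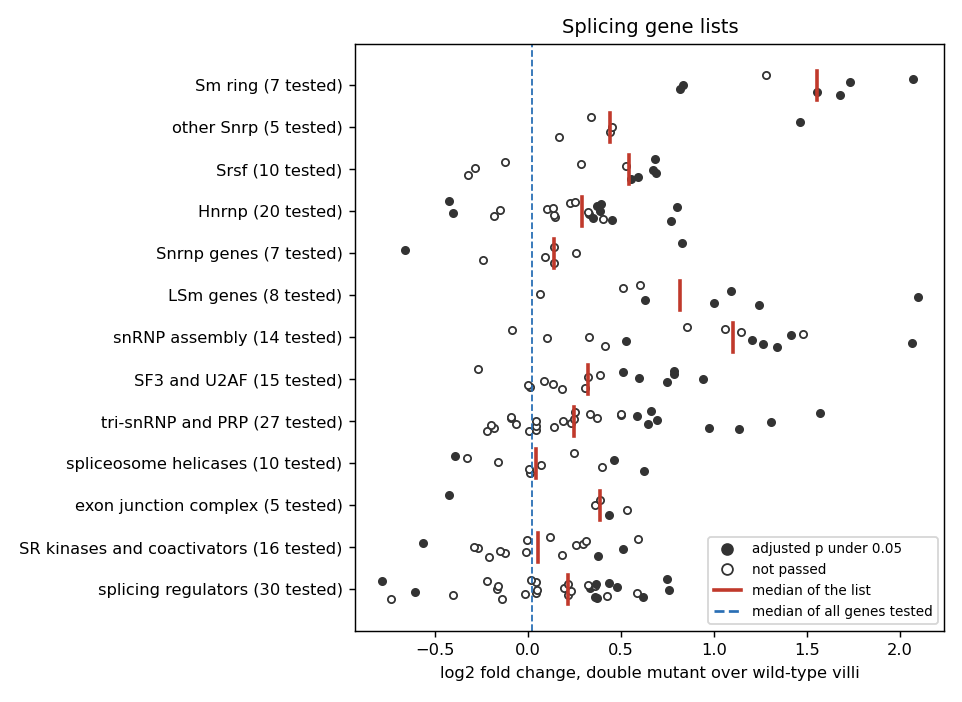
Log2 fold change of each tested gene in the member classes and in the 9 related splicing lists, with filled points for an adjusted p under 0.05 (edgeR), red bars for the median of a list and a dashed line for the median of all genes tested (0.02). The Sm ring has the highest median (1.55), and among the 9 related lists the snRNP assembly factors (1.10) and the LSm genes (0.82) do.

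Transcript length is given beside these values. The 5 members with at most 1000 bp of exon, *Snrpd1*, *Snrpd2*, *Snrpd3*, *Snrpf* and *Snrpg*, had a median log2 fold change of 1.68. The 1037 tested genes that short had a median of 0.21 (0.13 without ribosomal protein genes), with 21.2% higher and 6.65% lower. From 1000 to 2000 bp the medians were 0.80 for 5 members and 0.13 for all genes, and from 2000 to 4000 bp they were 0.23 for 17 members and 0.04 for all genes. Above 4000 bp the 15 members had a median of 0.39 and the 5434 genes one of -0.06, with 17.7% higher and 20.3% lower. The study's methods used RNA with an integrity number (RIN) above 4. The parts of length and of RNA integrity in the members' values were not tested.

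Some members share sequence with other places in the genome. At 95% identity over at least 80% of the coding length, 15 of the 43 had at least 1 further copy in mm9, 6 of them *Snrp*, 3 *Srsf* and 6 *Hnrnp* genes. *Hnrnpa3* had 20 such copies, *Hnrnpf*, *Snrpc* and *Srsf3* 4 each, *Snrpg* and *Snrpd2* 3 each and *Hnrnpa1* 2. The ring genes *Snrpd1*, *Snrpe* and *Snrpf* had 1 each, as had *Srsf5*, *Srsf10*, *Hnrnph2*, *Hnrnpk* and *Hnrnpr*. The closest copies of *Snrpg* and *Hnrnpa3* were identical over the aligned length. How reads matching several places were counted is not given in the sources used here, so the levels of these genes are uncertain. *Snrpb*, *Snrpd3* and *Snrpa1*, which rose, had no such copy.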

How the data were processed

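Reads of 150 bp were aligned by the authors to mm9 with HISAT2 v2.0.5 and counted per gene with featureCounts v1.5.0-p3. The deposited values are raw counts, unnormalized, with 1 column per mouse and no pooling. Of 20073 Ensembl identifiers, 20032 were found in the mm9 GENCODE annotation, and 336 further features were numbered transcripts. Symbols and biotypes were also matched to RefSeq, which renamed 2 members (*Hnrnpdl* and *Hnrnpll*).

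Groups followed the sample titles. Genes kept by filterByExpr were normalized by TMM and tested with edgeR 4.0.16 (R 4.3.3; glmQLFit, robust, and glmQLFTest), with Benjamini-Hochberg adjustment over all 13346 genes. CPM are TMM-scaled. A threshold of 0.05 on the adjusted p was used. A further log2 fold change of 2 from the study's methods was met by 1 member, *Snrpg*, and by none without wild-type replicate 1 (1.89) or without double mutant replicate 2 (1.91). Standard errors are the log2 fold change over the square root of F. Alternatives used DESeq2 1.42.0 and limma 3.58.1. Ratios were compared by exact permutation (SciPy 1.17.1), copies by BLAST 2.17.0+. The fit was tried on simulated counts first. With a simulated log2 change of 0.5 either way, 3 of 61 altered genes were called. With a change of 1 the fit found 34 of 66, and with 2 it found 58 of 66. A member that did not pass is therefore not shown to be unchanged, least of all where its change was small. Per-mouse values were given, by rule, for the 4 largest rises and 2 largest falls that passed in each class. The rule also covers members that passed with a change of at least 1, the paired genes and members within 3 counts. For *Hnrnpl*, *Hnrnph1* and *Hnrnph2* the per-mouse values given are the ratios of the pairs alone. In each related list the rule names the largest change each way that passed. *Snrpd3* and *Snrpe* were added after their values were seen, as were the per-mouse values of genes in related lists and the other genes named by their fold change. The prefix rule uses no expression value, but it and the lists were chosen with earlier results of these data known. The labels give 0.5 mM EDTA and the study's methods give another concentration for isolating the villi.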

Additional observations from a re-analysis of the deposited data

How the results depend on the processing

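No called member changed sign in any of 14 alternative fits, and 13 of the 22 called kept their call in all of them. Of the 20 members that did not pass, 13 passed in at least 1 alternative. Library size alone called 32 members higher and 0 lower, with 15 *Hnrnp* genes higher, 71 related genes higher and 2 lower. Of all genes, 28% were then higher and 10.7% lower, and their median moved by 0.19. *Srsf11*, *Hnrnpul1* and *Hnrnph3*, which did not pass, turned positive there and did not pass either. A minimum log2 fold change of 1 left 5 members higher and 0 lower, with 0 *Srsf* and 0 *Hnrnp* genes. Other normalisations, filters and sex as a covariate gave 18 to 22 members higher and 2 lower. Leaving out 1 mouse at a time gave 14 to 23 members higher and 0 to 2 lower, and 2 to 8 *Hnrnp* genes higher, while 1798 to 2750 of all 13346 genes were higher and 1606 to 2311 lower, in place of 2632 and 2273. The related lists then had 31 to 42 genes higher and 2 to 7 lower, with 3 lower without wild-type replicate 2 and 2 without double mutant replicate 3. The difference between the groups in the log2 ratio of *Srsf7* to *Srsf3*, 0.01 over all mice, then ran from -0.0211 to 0.0506, with -0.0112 without wild-type replicate 1 and -0.00817 without wild-type replicate 2. The cause of these changes was not tested. Deviations of mice with the same replicate number had correlations of 0.022, -0.109 and 0.012 between groups. For mice with unlike numbers they ran from -0.1025 to 0.0935. With 3 mice per group, these values cannot decide whether the numbers pair the mice. A fit with the replicate number as a block gave 15 members higher and 0 lower, 3 *Hnrnp* genes higher (15%) and 3 related genes lower, with 15.6% of all genes higher and 13.1% lower. *Srsf12* stayed within 3 counts in every library, too few for a test at this depth.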

Other observations

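Rows close to the naming rule were left out of the 43 genes because their features are not protein-coding in RefSeq or in the annotation. *Snrpert*, a pseudogene related to *Snrpe* on chromosome 2, had 39, 61 and 44 counts in wild-type and 21, 60 and 49 counts in double mutant libraries (log2 fold change -0.23, adjusted p = 0.721, edgeR). Its counts in wild-type replicate 2, where *Snrpe* had 49 counts, were the highest of the 6 libraries. A pseudogene of *Srsf3*, annotated as *Gm12355*, had at most 5 counts in any library and was not tested. The processed transcript *2610528B01Rik*, which lies beside *Hnrnpr*, had at most 11 counts.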
